A study of Homo sapiens with 6 samples.

Results

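The 7 genes described here are METTL16, MAT2A, METTL3, METTL14, WTAP, VIRMA and YTHDC1, whose products install, read or supply the methyl donor for N6-methyladenosine (m6A) on RNA. The members are peaks from RNA immunoprecipitation with an antibody to SF3B4, taken from 4 deposited peak lists. Each overlaps the hg19 interval of a gene by at least 1 bp. There were 27 such peaks among 181131 in all lists, and 5 of the 7 genes held at least 1. The values come from RNA immunoprecipitation and sequencing (RIP-seq) in HEK293T, a cell line of human embryonic kidney origin with the SV40 large T antigen. These cells were wild type, and the labels give no treatment. Each of 2 experiments, RIP-1 and RIP-2, had 1 anti-SF3B4 library, 1 IgG library and 1 input library. Each experiment yielded 1 list that its authors named mRNA (the mRNA list) and 1 that they named NotExon (the non-exon list). The labels do not define these names, and exons were not looked up.

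m6A is made in the nucleus by writer enzymes and bound by reader proteins. METTL3 is the catalytic subunit of the main writer, METTL14 its partner that helps to bind RNA, and WTAP and VIRMA are regulatory subunits that place the complex on transcripts. METTL16 is a separate methyltransferase that modifies U6 snRNA and hairpins at the end of the MAT2A transcript. MAT2A encodes the methionine adenosyltransferase that makes S-adenosylmethionine, the methyl donor of these enzymes, and METTL16 is known to act on the splicing of its last intron. YTHDC1 is a nuclear m6A reader. SF3B4, the protein immunoprecipitated here, is a subunit of SF3b, a complex within the U2 snRNP that helps to recognise intron branch sites during splicing.

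The lists differed in length, with 10960 mRNA-list and 25797 non-exon peaks in RIP-1 and 10280 and 134094 in RIP-2. A peak carries a score that behaves as 10 times the negative log10 of a p-value and starts at 50, and a non-exon peak also has a fold enrichment over a control and a false discovery rate (FDR), all as deposited by the authors. Every experiment gave a single call, so a value has no replicate error, no test was made, and the depth of the libraries is unknown. A gene without a peak is one where no interval passed the authors' threshold, not one shown to lack SF3B4.

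Of the 7 genes, 3 held peaks of both experiments, and these peaks overlapped at 1 place only. RIP-1 had 14 peaks in the 7 intervals, 10 from the mRNA list and 4 from the non-exon list. RIP-2 had 13, of which 3 came from the mRNA list and 10 from the non-exon list. The mRNA list therefore supplied 71.4% of the RIP-1 peaks in these genes (exact 95% CI 41.9 to 91.6), against 29.8% in the whole RIP-1 call. In RIP-2 it supplied 23.1% (exact 95% CI 5.04 to 53.8), against 7.12% in the whole call. These intervals cover counting error only, and peaks of 1 gene are not independent. A whole call also runs over chromosome stretches without genes, and the shares in other genes were not measured. Nothing particular to these 7 genes is therefore read from the shares. Peaks of both experiments occurred in METTL16, METTL14 and VIRMA, those of RIP-1 alone in YTHDC1, and those of RIP-2 alone in METTL3. MAT2A and WTAP held no peak.

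**Figure D1:**
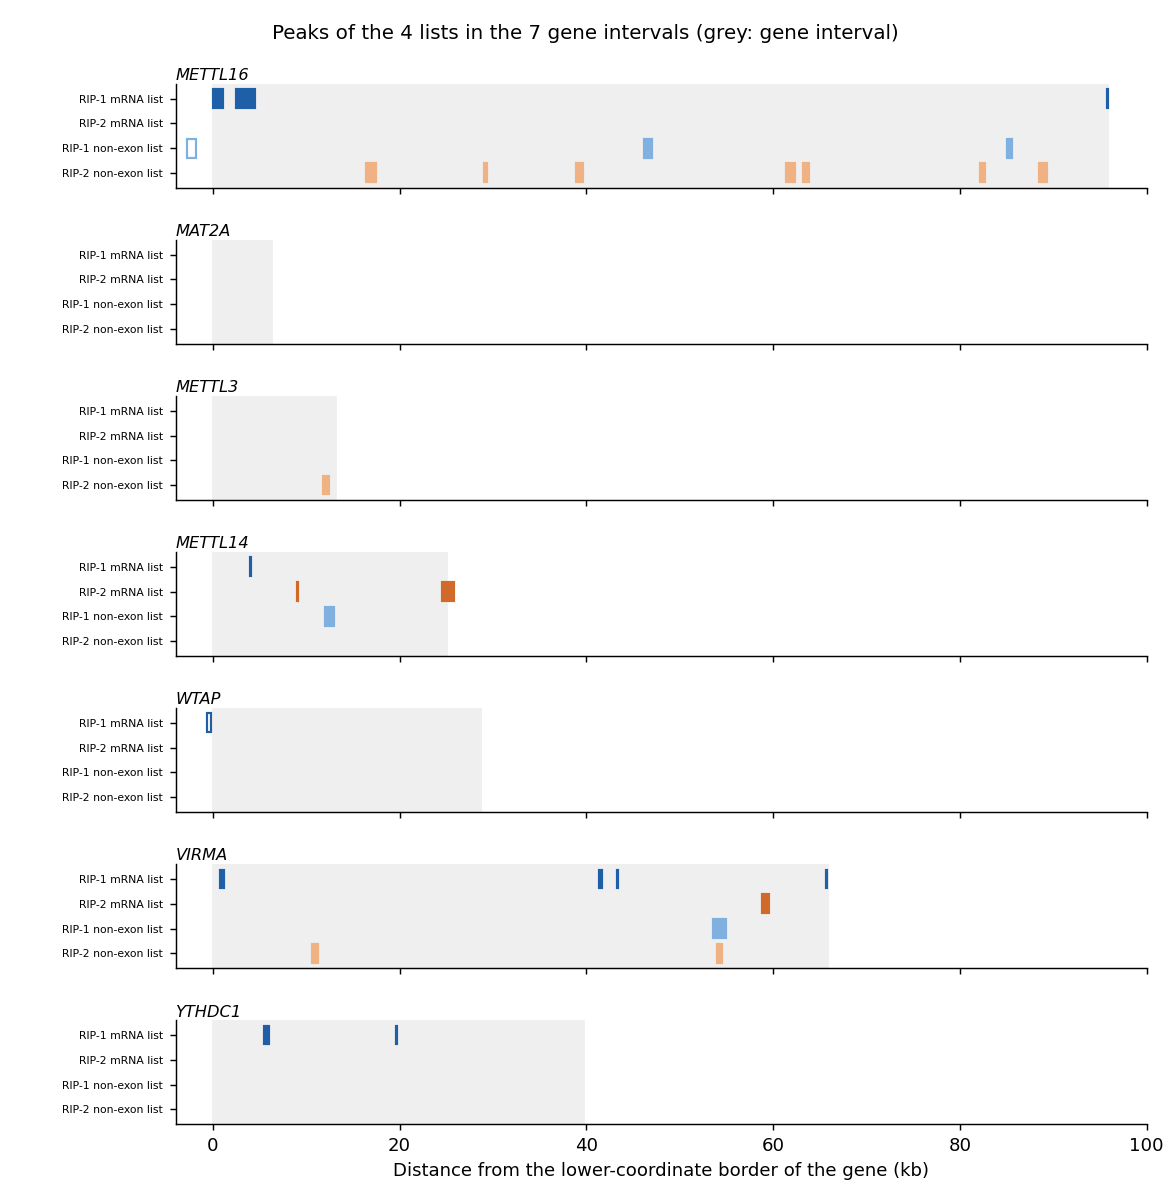
Positions of all 27 peaks in the 7 gene intervals, drawn to 1 scale as distance in kb from the border with the lower coordinate; grey is the gene interval, filled boxes are peaks in it, open boxes are the peaks within 3 kb outside a border, and each row is 1 list. Filled boxes of RIP-1 and RIP-2 overlap at 1 place, in VIRMA, where the RIP-2 box that starts at 54.0 kb lies within the RIP-1 box that starts at 53.6 kb.

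METTL16, the methyltransferase named in the title of the series, held 12 of the 27 peaks over 95.8 kb (chromosome 17, 2319343 to 2415185, minus strand). The RIP-1 mRNA list had 3 segments there and the RIP-2 mRNA list had 0. The mean density of these lists would give 0.353 and 0.330, over a span that includes stretches without genes. All 3 carried the minus strand, on which the gene is transcribed. They lay at the ends of the gene. The first ran from 2319347 to 2320446, 4 bp inside the 3′ border, with a score of 69.3. The second ran from 2321790 to 2323890, 2447 bp inside that border, with a score of 62.1. The third, from 2415052 to 2415200, reached 15 bp past the 5′ border and scored 61.1. None was strong for its list: 37.9%, 26.5% and 24.5% of the RIP-1 mRNA-list peaks scored lower.

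Between these ends, METTL16 held non-exon peaks of both experiments that did not meet. At the mean density of each list, the interval would hold 0.823 RIP-1 and 4.27 RIP-2 non-exon peaks. The stretches of the same length on both sides together held 4 and 9. RIP-1 had 2, from 2365557 to 2366424 (score 66.1, fold enrichment 5.72) and from 2404418 to 2404896 (score 57.4, fold enrichment 5.83). RIP-2 had 7, with scores of 56.2 to 243. The highest, from 2335727 to 2336853, had a score of 243 and a fold enrichment of 13.97, above 97.6% and 95% of the RIP-2 non-exon list. Its FDR was 100%. Of the other 6, 1 scored above the RIP-2 non-exon median of 80.6, at 90.4, and it lay from 2380763 to 2381736. The nearest approach of the experiments was 2329 bp, between the RIP-1 peak from 2404418 and a RIP-2 peak from 2401542 to 2402089.

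MAT2A, the METTL16 target, had 0 peaks in each of the 4 lists over its 6.30 kb (chromosome 2, 85766101 to 85772403, plus strand). An interval this short would hold 0.0232 RIP-1 and 0.0217 RIP-2 mRNA-list peaks, and 0.0541 RIP-1 and 0.281 RIP-2 non-exon peaks, at the mean density of each list. A count of 0 in so short an interval therefore says little about MAT2A. The closest peaks were both from RIP-1 and lay past the 3′ border, an mRNA-list segment of the opposite, minus strand at 6.53 kb (score 81.7) and a non-exon peak at 9.95 kb (score 57.1). The closest RIP-2 peak was a non-exon peak 72.2 kb before the gene, with a score of 50.25, near the floor.

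METTL3 and METTL14, the catalytic pair, held few peaks. At the mean list densities, METTL3 would hold 0.0485 RIP-1 and 0.0454 RIP-2 mRNA-list segments, and 0.113 RIP-1 and 0.587 RIP-2 non-exon peaks. For METTL14 these means are 0.0921, 0.0862, 0.215 and 1.12. Beside such low means, no difference between the genes is read from the counts. METTL3 (chromosome 14, 21966282 to 21979457, minus strand) had a single peak, in the RIP-2 non-exon list. It ran from 21978076 to 21978732, 725 bp inside the 5′ border, with a score of 57.2 and a fold enrichment of 4.38, and 15.3% and 1.56% of that list had lower values.

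METTL14 (chromosome 4, 119606574 to 119631600, plus strand) held mRNA-list segments of both experiments, at separate places and all on the plus strand of the gene. RIP-1 had 1, from 119610524 to 119610623, with a score of 83.6. RIP-2 had 2, from 119615613 to 119615681 with a score of 53.7 and from 119631152 to 119632391 with a score of 60.7. The RIP-1 segment scored slightly above its list median of 79.9, while both RIP-2 segments were below theirs of 79.6. The second RIP-2 segment crossed the 3′ border and ended 791 bp past it, and the nearest segments of the experiments were 4990 bp apart. RIP-1 also had a non-exon peak from 119618553 to 119619525, whose score of 101 was the highest among the 4 RIP-1 non-exon peaks of the 7 genes.

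WTAP, the subunit that brings the catalytic pair to nuclear speckles, had 0 peaks in each list over 28.7 kb (chromosome 6, 160148604 to 160177351, plus strand). The mean density of the RIP-2 non-exon list would give 1.28, so a count of 0 says little about WTAP. A RIP-1 mRNA-list segment lay just outside, 239 bp before its 5′ border, from 160148031 to 160148365. It was on the plus strand and scored 204, above 88.6% of that list. With the interval widened by 5 kb it would count as a WTAP segment, and no other hg19 gene border was used here.

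VIRMA, a scaffold subunit of the writer complex, held 8 peaks over 65.8 kb (chromosome 8, 95499921 to 95565757). At the mean list densities, the interval would hold 0.242 RIP-1 and 0.227 RIP-2 mRNA-list segments, and 0.565 RIP-1 and 2.93 RIP-2 non-exon peaks. The RIP-1 mRNA list had 4 segments there, more than in any other of the 7 genes, all on the minus strand on which VIRMA is known to be transcribed. They began at 95500695, 95541297, 95543190 and 95565612, with scores of 64.3, 75.1, 102 and 57.5. The first lay 774 bp from the border with the lower coordinate and the last 59 bp from the other, and the middle pair were 1620 bp apart. The RIP-2 mRNA list had 1 segment, from 95558770 to 95559434, with a score of 138. It carried the plus strand, opposite to the gene, and none of the RIP-1 segments overlapped it.

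The VIRMA non-exon peaks gave the only place in the 7 genes where the experiments met. The RIP-1 peak ran from 95553532 to 95554902, with a score of 74.98 and a fold enrichment of 4.27. The RIP-2 peak, from 95553934 to 95554405, lay wholly within it and covered 34.4% of it, with a score of 61.7 and a fold enrichment of 4.75. Both were weak by fold enrichment, since 6.30% of the non-exon list had lower values in RIP-1 and 2.80% in RIP-2. A second RIP-2 non-exon peak of VIRMA, from 95510532 to 95511142, had the highest fold enrichment of the 14 non-exon members, 15.42. Its score was 146, its FDR was 100%, and it had no RIP-1 partner.

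YTHDC1, the nuclear reader (chromosome 4, 69176105 to 69215824, minus strand), had 2 RIP-1 mRNA-list segments and 0 peaks in the other 3 lists. Both were on the minus strand of the gene. The mean density of the RIP-1 mRNA list would give 0.146. The segment from 69195719 to 69195837 is 118 bp long, lies near the middle of the gene, and scored 284, the highest of the 27 peaks and above 92.8% of the RIP-1 mRNA list. The other, from 69181617 to 69182166, scored 51.85, near the floor. The RIP-2 non-exon list had 0 peaks in YTHDC1, where its mean density would give 1.77. Beside so low a mean, a count of 0 says little about YTHDC1.

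**Figure D2:**
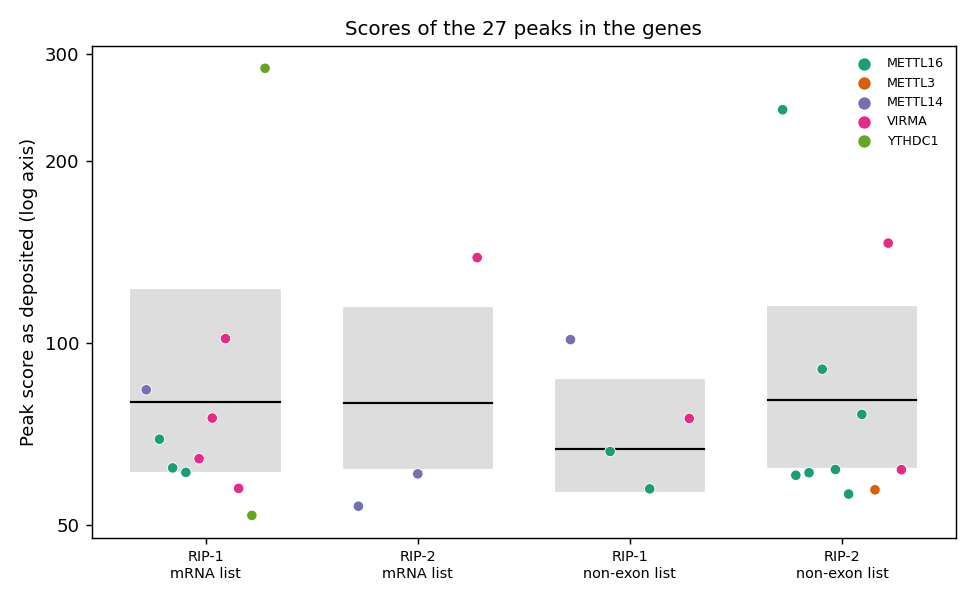
Deposited scores (log axis) of the 27 peaks, 1 point per peak coloured by gene; grey boxes are the interquartile range and black lines the median of each whole list. Most points lie below the line of their list, and the highest are the YTHDC1 segment at 284 in RIP-1 and the METTL16 peak at 243 in RIP-2.

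Most members were weak for their lists. Of the 10 RIP-1 mRNA-list segments, 3 scored above the median of the whole list, in YTHDC1, VIRMA and METTL14, and their own median was 66.8 against 79.9 in the list. Of the 3 RIP-2 segments, the one in VIRMA did, and the medians were 60.7 and 79.6. Among non-exon peaks, 2 of 4 in RIP-1 and 3 of 10 in RIP-2 scored above the list median, with medians of 70.6 against 66.9 and of 61.7 against 80.6. The fold enrichment of the 4 RIP-1 non-exon peaks ran from 4.27 to 7.27 with a median of 5.78, against 6.55 in the list, and that of the 10 RIP-2 peaks from 4.38 to 15.42 with a median of 6.92, against 8.19. All 4 RIP-1 non-exon peaks had an FDR of 100%, as 94.1% of that list did. In RIP-2 the FDR was 100% for 3 of the 10, beside 41.6% of that list, and these were the 3 with the highest scores. The lowest FDR was 72.4% among the 10 and 68.3% in the whole RIP-2 non-exon list, so the FDR does not set these peaks apart from the list. At such values the FDR gives no support for enrichment of any of the 14 non-exon peaks over the control. The mRNA-list segments carry no FDR, so binding of SF3B4 at a member is not established here.

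**Figure D3:**
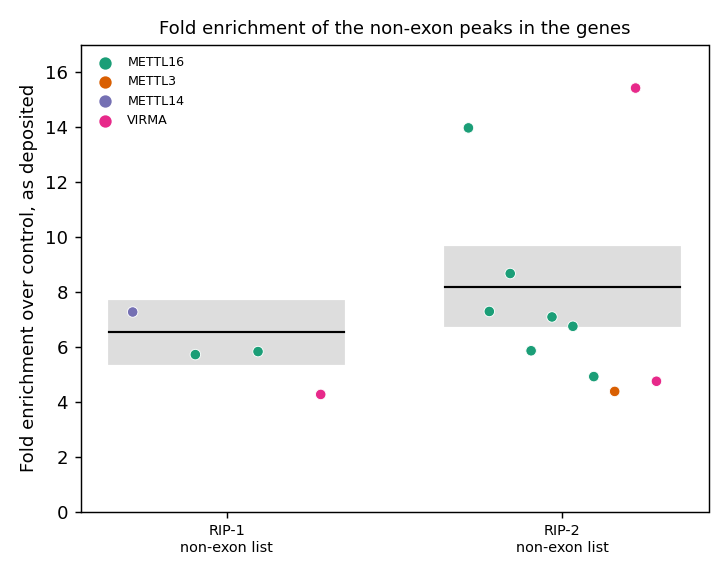
Fold enrichment over the control, as deposited, of the 14 non-exon peaks in the genes, 1 point per peak coloured by gene; grey boxes are the interquartile range and black lines the median of each whole list. The VIRMA peak at 15.42 and the METTL16 peak at 13.97 stand above the RIP-2 box, and the 4 RIP-1 points lie between 4.27 and 7.27.

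The repetition of the experiment asks which peaks return, as the design text compares RIP-1 with RIP-2 to leave out non-specific reads. Of the mRNA-list segments in these genes, 0 of 10 in RIP-1 (exact 95% CI 0 to 30.8%) overlapped a RIP-2 segment, beside 6.41% of the whole RIP-1 list. Likewise 0 of 3 RIP-2 segments (exact 95% CI 0 to 70.8%) overlapped one of RIP-1, beside 6.91% of the RIP-2 list. At such shares of the lists, 0 of so few segments does not set the genes apart. Of the non-exon peaks, 1 of 4 in RIP-1 (25%, exact 95% CI 0.631 to 80.6) and 1 of 10 in RIP-2 (10%, exact 95% CI 0.253 to 44.5) were shared, beside 18.1% and 3.63% of the whole lists. Both are the same VIRMA pair. At the level of genes, 2 of 7 had mRNA-list segments in both experiments, METTL14 and VIRMA, and 2 of 7 had non-exon peaks in both, METTL16 and VIRMA. These gene counts ignore strand. The RIP-2 segment of VIRMA was on the plus strand, opposite to its RIP-1 segments, so only METTL14 had segments of both experiments on 1 strand. An mRNA-list segment in either experiment was found in 4 genes, and in 2 genes (METTL14 and VIRMA) when RIP-1 was left out.

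Strand was not used to choose the members. All 8 mRNA-list segments in genes with a strand in the RefSeq table of gene starts (GRCh38.p14) carried the strand of their gene: 3 in METTL16, 3 in METTL14 and 2 in YTHDC1. VIRMA has no strand in that table, and its segments were 4 of the minus and 1 of the plus strand. How the authors gave a strand to a segment is not stated in the sources used here, and whether it came from the reads was not tested. Non-exon peaks carry no strand. A strand copied from gene annotation would match the gene by construction, so the 8 matches are not read as a result.

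Relative to length, the 7 intervals, 275 kb together, held more mRNA-list segments than the lists on average. In RIP-1 they held 3.64 per 100 kb, against 0.910 in the flanks of the same length on both sides of each gene and 0.368 in the whole list. The RIP-1 values stand for 10 segments in the genes and 5 in the flanks. Of those 5, 3 lay beside METTL16 and 1 was the segment 239 bp before WTAP. In RIP-2 the genes held 1.09, against 0.182 in the flanks and 0.344 in the whole list. These values stand for 3 segments in the genes and 1 in the flanks. With the midpoint required inside the gene, 2 segments in the genes are left. The mean of a list runs over the whole span of the chromosomes, with or without genes, and other genes were not measured. Nothing particular to these 7 is therefore read from it. The contrast with the flanks is not read as a result either. If the mRNA list keeps peaks on exons, as its name may mean, more segments in genes than beside them follow from that selection. How the lists were split was not tested. Non-exon peaks were not denser in the genes than beside them. In RIP-1 the genes held 1.46 per 100 kb and the flanks 1.64, against 0.859 in the list. In RIP-2 genes and flanks both held 3.64, against 4.46 in the list. The longest genes, METTL16 and VIRMA, held 20 of the 27 peaks.

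**Figure D4:**
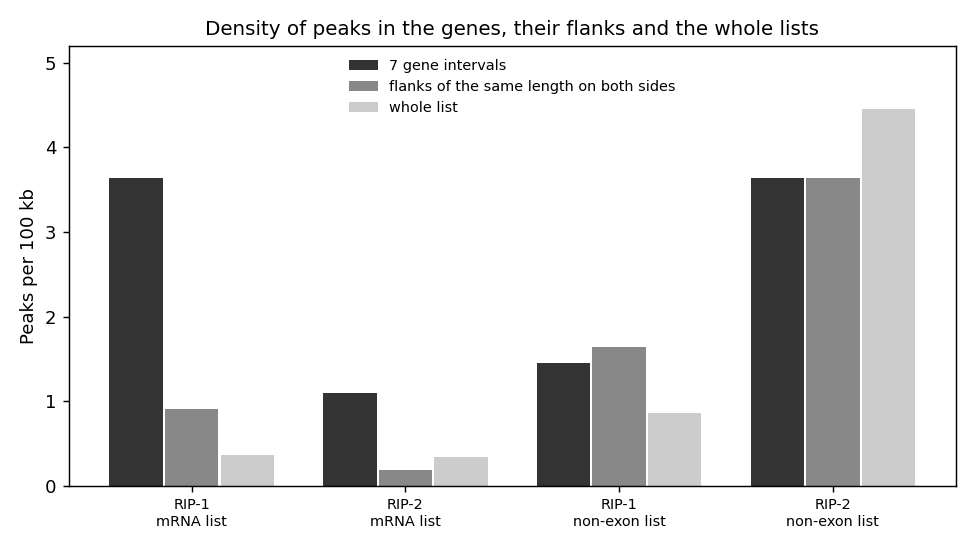
Peaks per 100 kb in the 7 gene intervals, in the flanks of the same length on both sides of each gene and in the whole list, for each of the 4 lists (bars from 0, no error since each list is a single call). For the mRNA lists the bars of the genes, 3.64 and 1.09, stand above both others, which the selection of those lists may give by construction. These bars stand for 10 and 3 segments, and those of the flanks for 5 and 1. For the non-exon lists the bars of the genes do not stand above the flanks.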

How the data were processed

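The 4 deposited peak lists hold 1 call per RIP experiment. Per the submitters' processing notes, cutadapt 1.9.3, HISAT2 2.0.4 and the build hg19 were used. Peak names carry the prefix of MACS, and its version, settings and control library are not stated in the sources used here. The score, and in the non-exon lists the length, the fold enrichment (a ratio) and the FDR in percent, were made by the authors and deposited without a header, so their meaning was taken from column order and values. In the non-exon lists the length equals the end minus the start plus 1 in every row, so positions start at 1. The counting base of the mRNA lists is unknown, which leaves 1 bp of uncertainty.

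Peaks were assigned to the 7 hg19 gene intervals, ranked by score in their own list, and called shared when they overlapped a peak of the other experiment and the same kind of list by 1 bp or more, on 1 strand where given. List means per 100 kb use the span from the first to the last peak of each chromosome. Shares have exact (Clopper-Pearson) 95% intervals. Python 3.11.15, pandas 2.3.3 and SciPy 1.17.1 were used, and the overlap code was tested on simulated intervals.

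The named peaks were all mRNA-list segments, shared non-exon peaks, the highest non-exon peak of each experiment in a gene, and the nearest peaks outside the borders; other METTL16 non-exon peaks were chosen after their values were seen. The genes were chosen with earlier results of these data known. Other m6A genes (such as FTO, ALKBH5 and the YTHDF genes) and the sequences under the peaks need hg19 positions or sequence and were not analysed here.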

Additional observations from a re-analysis of the deposited data

How the results depend on the processing

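The counts are small, so single peaks move them. Of 32 alternative values, 20 stayed within 1.5 times the value reported and 12 moved further. In the upper 50% of each list by score, the genes kept 3 of 10 RIP-1 and 1 of 3 RIP-2 mRNA-list segments. They kept 2 of 4 RIP-1 and 3 of 10 RIP-2 non-exon peaks. A shorter list keeps fewer peaks by construction, and those kept are the members that score above their list medians. Within the upper 50%, 1 gene, not 2, had mRNA-list segments in both experiments, 1 had non-exon peaks in both, and 0 non-exon peaks were shared. The gene with mRNA-list segments was VIRMA, whose RIP-2 segment lay on the strand opposite to its RIP-1 segments. With the RIP-2 non-exon list limited to its strongest 25797 peaks, the length of the RIP-1 list, 2 peaks and 0 shared ones were left. The VIRMA pair also fell away, to 0, when an overlap of 50% of each of the peaks was required, since the RIP-2 peak covers 34.4% of the RIP-1 peak. Counting only segments on an annotated strand left 6 RIP-1 segments, because VIRMA has no strand in the table. Leaving out 1 experiment gave 2 to 4 genes with an mRNA-list segment. The count of 0 shared mRNA-list segments stayed at 0 with strand ignored, a setting that admits more overlaps. It was also 0 with 50% of each peak required, with the RIP-1 midpoint inside a RIP-2 peak, and in the upper 50%. Those settings only remove overlaps, so their 0 was fixed by construction and says nothing about stability. They are nevertheless among the 20 values that stayed. No paired analysis was possible because the lists hold 1 call for each experiment and no values of single libraries. Unknown depth limits every comparison of counts and scores between RIP-1 and RIP-2.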

Other observations

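The surroundings of the genes differed. The flanks of METTL16 held 3 RIP-1 mRNA-list segments, all on the side of the lower coordinate, and 9 RIP-2 non-exon peaks, 4 on that side and 5 on the other. A RIP-1 non-exon peak lay 1.79 kb past the METTL16 3′ border, with a score of 66.4. The flanks of YTHDC1 held 0 peaks of any list, so its segments with scores of 284 and 51.85 had no other peak near them. The nearest outside YTHDC1 were a RIP-1 non-exon peak at 58.97 kb on the side of the higher coordinate and a RIP-2 non-exon peak at 90.5 kb on the other. Beside VIRMA, a RIP-2 non-exon peak lay 6.15 kb past the border with the higher coordinate, with a score of 61.03. Past METTL14, a RIP-1 non-exon peak lay 3.62 kb beyond the 3′ border, with a score of 59.9.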
